A study of Mus musculus with 6 samples.

Results

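Solute carriers are the membrane transporters whose mouse gene symbols begin with Slc, and 210 of them were described here in a kidney collecting duct line given the vasopressin analog dDAVP or its vehicle. Members were all genes whose symbol on the array platform was Slc followed by a number, a letter and a number, which leaves out the Slco family. Another 8 genes that fit or resemble this pattern (Slc3a2, Slc7a5, Slc7a11, Slc5a3, Slc6a6, Slc6a12, Slc14a2 and Slc9a3r1) were set aside by the rule. The 210 were drawn from 12364 genes with a probe set of their own among 28225 probe sets, and for genes with several probe sets the brightest one, by its average signal on the 6 arrays, stood for the gene. The symbol rule itself uses no measured change, but the members were chosen with earlier results of these data known. Of the 8 set aside, 6 were measured, and all 6 had higher mean signals with dDAVP, as 55.4% of all genes did.

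The cells were mpkCCD clone 11, an immortalised line from mouse kidney cortical collecting duct, here a single clone, grown on membrane supports so that they polarize. Once the cell layer had reached a high electrical resistance it was kept for 5 days with vehicle alone (3 arrays) or with 0.1 nM dDAVP (3 arrays), a synthetic agonist of the vasopressin V2 receptor. Total RNA was measured on Affymetrix Mouse Genome 430 2.0 arrays, and values are log2 signals. The labels call the arrays of a group biological replicates without naming passages or days, so p-values reflect how far these 6 samples scatter, which may be technical.

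A carrier protein moves a small molecule or ion across a membrane, either down its gradient or by coupling it to the flow of sodium, protons or another solute. Families are numbered by sequence relationship, and most have a typical cargo: family 4 carries bicarbonate, family 12 cations together with chloride, family 25 metabolites across the inner mitochondrial membrane, family 30 and family 39 zinc, family 35 nucleotide sugars into the Golgi. In the kidney the nephron segments differ in the carriers they hold. Collecting duct principal cells reabsorb sodium and water mainly through channels, and vasopressin acts on them through cAMP.

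Of the 210 solute carrier genes, none passed the test between dDAVP and vehicle in limma at a Benjamini-Hochberg adjusted p below 0.05 over all probe sets (0 higher, 0 lower), where 0.291% of all genes (0.259% higher, 0.0324% lower) and 0.216% of all probe sets were called. The lowest adjusted p of a member was 0.201. At an unadjusted p below 0.05 there were 20 members, or 9.52% of the members against 7.80% of all genes. The signal was higher in dDAVP cells for 16 of them (5.51% of all genes) and lower for 4 (2.30% of all genes). That split was 11 and 6 with the arrays centred on their medians. It was 6 and 4 after scaling to the poly-A control transcripts, and 67 and 0 after scaling to the hybridisation controls. Shares of all genes at that p were not counted under these scalings, which move all genes alike. The median change over all probe sets became -0.0083, -0.020 and 0.15, in place of 0.0039. Under the hybridisation controls, dDAVP arrays lay entirely above vehicle arrays for 35.2% of members and 34.7% of all genes. The test was fitted across all genes with 3 arrays a group, and the standard error of a member's log2 change had a median of 0.0745 (range 0.054 to 0.26).

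For 207 of the 210 members the 95% interval of the change lay entirely within 1.5-fold in either direction (0.585 log2 units), a share of 98.6% against 98.4% of all genes. The members outside that bound were the monocarboxylate transporter family gene Slc16a6, the sugar transporter gene Slc5a10 and the vesicular monoamine transporter gene Slc18a2, which were singled out after their values were seen. For Slc18a2 the interval ran from -0.48 to 0.71 and the vehicle arrays alone ranged from 3.64 to 4.74. For Slc5a10 it ran from -0.59 to 0.12. These intervals are single-gene intervals and are not adjusted for the number of genes.

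**Figure D1:**
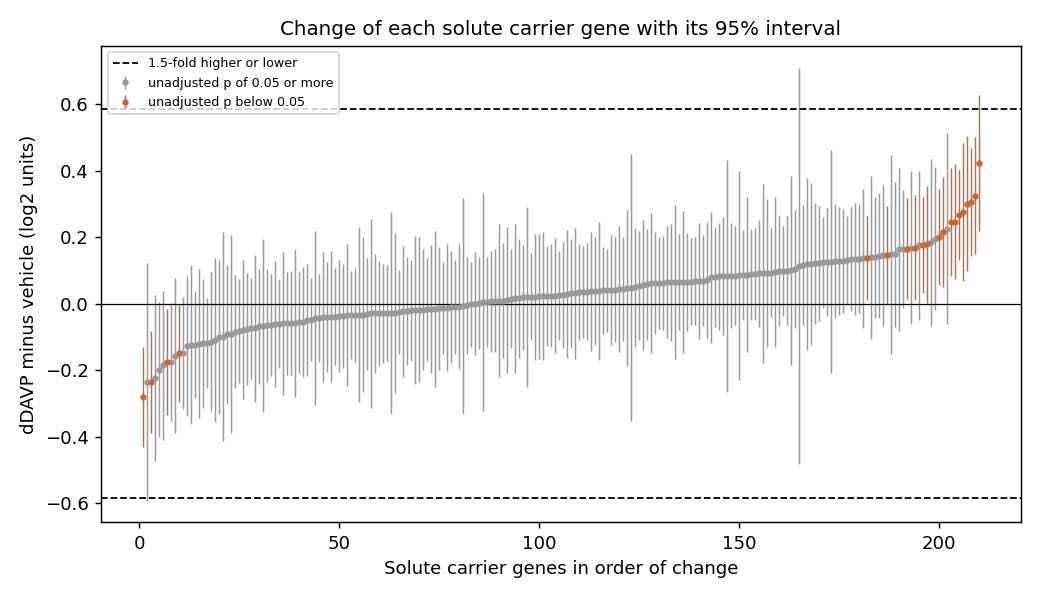
Log2 change (dDAVP minus vehicle, y axis) of each of the 210 solute carrier genes in order of change (x axis), as points with the 95% interval of the limma fit as bars. Dashed lines mark 1.5-fold, and orange marks the 20 genes with an unadjusted p below 0.05. The intervals of 207 genes stay between the dashed lines.

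The changes spread from -0.28 to 0.42 log2 units with a median of 0.026, beside a median of 0.012 over all genes. A positive value was seen in 126 members (60.0%, against 55.4% of all genes) and a negative one in 84. The 3 dDAVP arrays all lay above the 3 vehicle arrays for 27 members, or 12.9% against 10.1% of all genes. They all lay below for 7 members, or 3.33% against 5.13%, so that 34 members did not overlap in either direction against 15.2% of all genes. The balance of signs rests on the scaling of the arrays, for the members and for all genes. With arrays scaled to the poly-A control transcripts, 109 of 210 members and 5467 of 12364 genes had a positive value. The medians were then 0.0021 for members and -0.012 for all genes. With arrays scaled to the hybridisation controls, under which the median over all probe sets was 0.15 in place of 0.0039, it was 200.

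Mean signals of the members ran from 2.57 to 12.40, where those of all genes ran from 2.47 to 14.07. A limit for dim signal was set at 3.56, the 95th percentile of the signal of 10 probe sets for olfactory receptors, since kidney cells were assumed not to express those receptors. The mean signal of 188 members was above this limit and that of 22 was not, while 125 were above 6.72, the median of all probe sets. Signals of different probe sets are not per length and depend on how well each probe binds, so their order is not an order of transcript abundance. By signal the members ran from Slc25a39, a mitochondrial carrier needed for glutathione import (12.40, mean of 6 arrays), and Slc25a3, the mitochondrial phosphate carrier (12.38), down to Slc10a2, the bile acid carrier of ileum and proximal tubule (2.57). The next in the order were Slc38a2 and Slc7a1, which carry neutral and cationic amino acids (11.83 and 11.83), Slc25a5, the main ADP/ATP exchanger (11.52), and Slc44a2, a choline transporter-like protein (11.35). The groups of Slc25a39 overlapped, with arrays at 12.30, 12.48 and 12.33 in vehicle cells and 12.36, 12.46 and 12.48 in dDAVP cells. Dimmer probe sets of Slc25a39 had means of 10.49, 9.70 and 8.25, and those of Slc44a2 means of 9.64 and 7.38. The brightest probe sets of Slc25a39, Slc25a5 and Slc44a2 are of a type that can bind related sequences.

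**Figure D2:**
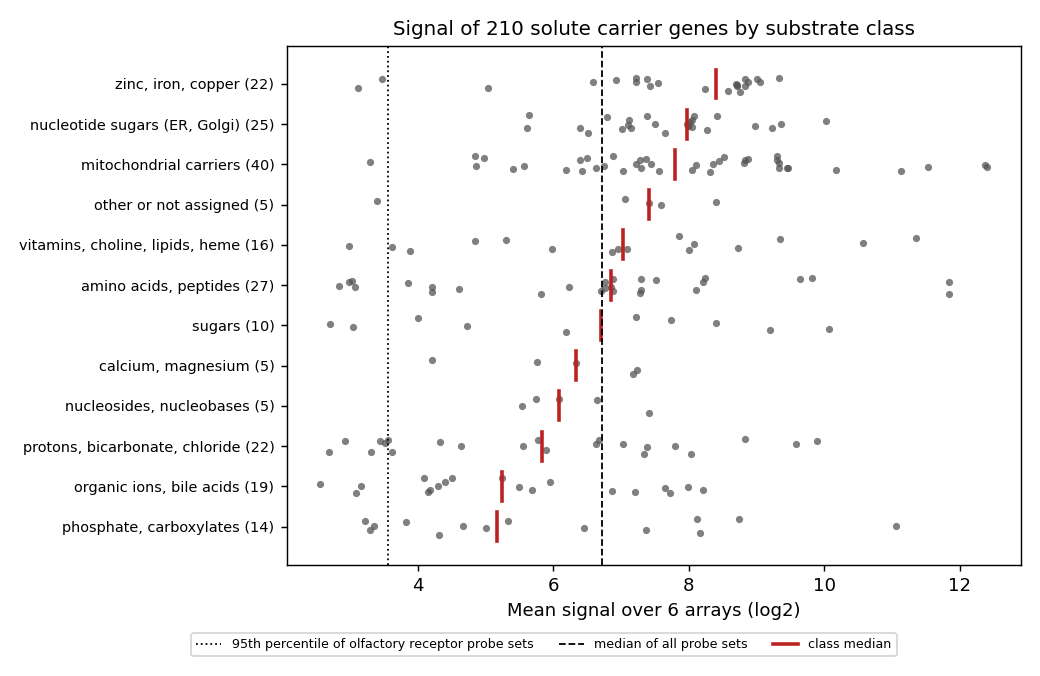
Mean log2 signal over 6 arrays (x axis) of the 210 solute carrier genes, 1 point a gene, by substrate class (y axis, number of genes in brackets). Red bars are class medians, the dotted line is the olfactory receptor limit of 3.56 and the dashed line the median of all probe sets, 6.72. All 25 genes of the nucleotide sugar class and 39 of the 40 mitochondrial carriers lie above the dotted line, and 29 of those 40 also lie to the right of the dashed line.

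Carriers that mark other nephron segments mostly had no probe set of their own among the deposited values, which is what not measured means here. Whether the array itself holds probe sets for them was not examined. The measured ones ranged from dim to bright. Of 38 such genes listed, 14 were measured and 9 were above the olfactory receptor limit. None of the 14 passed (0). On their brightest probe sets none had arrays that did not overlap (0), against 15.2% of all genes. Slc12a1, the sodium-potassium-chloride cotransporter of the thick ascending limb, was at 2.96 ± 0.078 in vehicle and 2.90 ± 0.051 in dDAVP cells (SD, n = 3). Slc9a3, the sodium-proton exchanger of the proximal tubule, was at 3.51 ± 0.058 and 3.54 ± 0.080, and Slc26a7, an anion exchanger of intercalated cells, at 2.75 ± 0.085 and 2.63 ± 0.067. Others were well above the limit. Slc26a11, the other measured anion exchanger of the intercalated list, was at 5.70 and 5.87, and Slc41a3, a magnesium transporter and the 1 measured carrier of the distal convoluted tubule list, at 7.16 and 7.19. In the proximal list, Slc4a4, an electrogenic sodium bicarbonate cotransporter, was at 7.79 ± 0.035 and 7.81 ± 0.099. Slc7a7, a light chain for cationic amino acid export, was at 6.79 ± 0.16 and 6.99 ± 0.094. A dimmer Slc7a7 probe set lay entirely higher with dDAVP, by 0.36 ± 0.073 (SE, limma adjusted p = 0.192). Among markers of the labelled cell type, all 10 measured of 12 principal cell genes and all 5 epithelial genes were above the limit. The principal cell gene Elf5 was close to the limit, at 3.75 in vehicle and 3.74 in dDAVP cells. Only 7 of the 10 principal cell genes were above the median of all probe sets. Among the 10, 3 passed. These were Aqp2, the vasopressin-regulated water channel (6.70 in vehicle and 10.85 in dDAVP cells), Avpr2, the V2 receptor (8.73 and 9.25), and Fxyd4, a regulator of the sodium pump (8.89 and 9.57). Both measured markers of intercalated cells, of 6 listed, lay higher in every dDAVP array without passing. Atp6v1b1 was at 7.15 and 7.48 and Atp6v0a4 at 5.89 and 6.31. Entirely higher dDAVP arrays were also seen for 5 of 10 principal cell genes and 3 of 5 epithelial genes. The share over all genes was 10.1%. Of 6 proximal tubule markers 2 were measured and both were above the limit, the endocytic receptor gene Lrp2 at 8.35 and 8.25 and the organic anion transporter gene Slc22a8 at 4.13 and 4.25. Of 3 leukocyte markers the defining gene Ptprc was under the limit at 3.11 and 3.32, and Cd68 was at 5.46 and 5.65 without overlap. The 1 measured marker of endothelium, Cdh5, was under the limit and that of fibroblasts, Col1a1, just above it at 3.61 and 3.65. The part of these genes in any value of the solute carriers was not tested.

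The gene with the largest change was Slc16a6, which encodes a monocarboxylate transporter family member linked to ketone body export. Its only probe set measured 4.52, 4.51 and 4.36 in vehicle cells and 4.77, 4.85 and 5.05 in dDAVP cells. All dDAVP arrays were above all vehicle arrays, by 0.42 ± 0.088 log2 units (SE), or 1.34-fold (limma adjusted p = 0.201, unadjusted 0.00147), and the signal was under the median of all probe sets in both groups. With arrays scaled to the hybridisation controls this gene passed at 0.57 (adjusted p = 0.0305). Its class, the carriers of phosphate, sulfate and carboxylates, held 14 genes with a median of -0.025, 5 positive and 9 negative. Slc34a2, a sodium phosphate cotransporter, was at 5.07, 5.19 and 5.04 in vehicle and 4.85, 4.97 and 4.95 in dDAVP cells, a difference of -0.18 ± 0.069 (adjusted p = 0.573). Slc16a1, the widespread lactate and pyruvate carrier and the brightest of the class, differed by 0.08 ± 0.065 with overlapping arrays. Of the members in this class at or under the dim limit, Slc16a12, a creatine transporter, had 3.35, 3.42 and 3.35 in vehicle and 3.05, 3.18 and 3.04 in dDAVP cells (-0.28 ± 0.065, adjusted p = 0.267). That gene was named after its values were seen, and its groups do not overlap although its signal was not above the olfactory receptor limit.

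Carriers of protons, bicarbonate and chloride numbered 22, of which 17 were above the dim limit. Their median change was 0.036 (14 positive, 8 negative), and 3 had dDAVP arrays all above and 1 all below the vehicle arrays (13.6% and 4.55%, against 10.1% and 5.13% of all genes). Slc4a5, an electrogenic sodium bicarbonate cotransporter, measured 6.44, 6.44 and 6.57 in vehicle and 6.84, 6.83 and 6.70 in dDAVP cells. The difference was 0.31 ± 0.070 (adjusted p = 0.258), and under the hybridisation control scaling it passed at 0.45 (adjusted p = 0.0449). Slc4a11, a member of the same family that moves protons rather than bicarbonate, measured 8.72, 8.81 and 8.58 in vehicle and 8.91, 9.01 and 8.94 in dDAVP cells. It differed by 0.25 ± 0.075 (adjusted p = 0.422), and its dimmer probe set by 0.35 ± 0.087 (adjusted p = 0.307), also without overlap. Slc9a7, a sodium-proton exchanger of the trans-Golgi network, lay close to the dim limit, at 3.54 ± 0.043 in vehicle and 3.72 ± 0.12 in dDAVP cells (SD, n = 3). Its difference was 0.18 ± 0.076.

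The housekeeping members of this class showed small differences with tight intervals. Slc12a2, the basolateral sodium-potassium-chloride cotransporter, was at 9.90, 9.84 and 9.85 in vehicle and 9.95, 9.97 and 9.88 in dDAVP cells, and the 95% interval of its change ran from -0.066 to 0.21. Slc4a2, a chloride-bicarbonate exchanger, was at 9.60, 9.64 and 9.53 against 9.53, 9.59 and 9.62, with a change of -0.0090 ± 0.061. In both genes the groups overlap. The potassium-chloride cotransporters Slc12a4, Slc12a5 and Slc12a7, chosen after their values were seen, differed by 0.040, 0.15 and 0.068, with overlapping arrays as well.

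Mitochondrial carriers of family 25 were the largest class, with 40 members, 39 of them above the dim limit. Their median change was 0.052 (28 positive, 12 negative), the largest class median, and none passed (0). The dDAVP arrays lay entirely above the vehicle arrays for 10 of the 40 and entirely below for 0, beside 10.1% and 5.13% of all genes. For the other 170 members these counts were 17 and 7. An unadjusted p below 0.05 was seen for 6, all positive (5.51% of all genes were higher at that threshold). In the other 30 the groups overlapped, and the largest negative value was -0.11 for Slc25a34, a gene outside the naming rule. After scaling to the poly-A controls only 4 of the 40 lay entirely above and 1 lay entirely below (4.93% and 4.84% of all genes). After scaling to the hybridisation controls 20 lay above and 0 below (34.7% and 0.275% of all genes). Without any 1 array the counts ran from 11 to 15 above and 0 to 2 below, beside 13.5% to 18.9% and 8.91% to 10.8% of all genes. Leaving out an array cannot make separated groups overlap, so these counts and shares could not fall. No test of the class was made, and its medians are descriptions.

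Among these, Slc25a48, a member of the mitochondrial carrier family, measured 7.11, 7.32 and 7.21 in vehicle and 7.45, 7.58 and 7.59 in dDAVP cells. The difference was 0.32 ± 0.076 (adjusted p = 0.267), and its second probe set, at a mean of 3.54, differed by -0.0023 ± 0.089. Slc25a33, a pyrimidine nucleotide carrier, measured 5.19, 5.27 and 5.34 against 5.71, 5.58 and 5.41, a difference of 0.30 ± 0.087 (adjusted p = 0.404). Slc25a30, a carrier described from kidney mitochondria, measured 8.74, 8.64 and 8.81 against 8.83, 9.08 and 9.11, a difference of 0.28 ± 0.090 (adjusted p = 0.471). All 4 Slc25a30 probe sets had positive values, from 0.17 to 0.35.

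Carriers of the malate-aspartate shuttle, which moves reducing power between cytosol and mitochondrion, were examined together after their values were seen. Slc25a13, an aspartate-glutamate exchanger, differed by 0.21 ± 0.071 (8.66, 8.79 and 8.67 in vehicle against 9.02, 8.91 and 8.84 in dDAVP cells, adjusted p = 0.479). Slc25a12, the second such exchanger, differed by 0.17 ± 0.066 on its brightest probe set (8.51, 8.38 and 8.41 against 8.65, 8.53 and 8.61). Its dimmer probe sets had the opposite sign, at -0.18 ± 0.076 and -0.11 ± 0.11, and the mean over its 3 probe sets was -0.041, so this gene has no settled direction. Slc25a11, the oxoglutarate-malate exchanger, differed by 0.12 ± 0.059 (9.20, 9.23 and 9.30 against 9.35, 9.40 and 9.35). Slc25a10, a dicarboxylate carrier outside the shuttle, differed by 0.18 ± 0.062, and its second probe set by 0.16 ± 0.064. None of the 4 genes passed.

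The ADP/ATP exchangers and the phosphate carrier, which feed the ATP synthase, had bright probe sets and small differences; Slc25a5, Slc25a4 and Slc25a3 were named after their values were seen. Slc25a5 measured 11.46, 11.42 and 11.50 in vehicle and 11.60, 11.61 and 11.56 in dDAVP cells, a difference of 0.13 ± 0.057 (adjusted p = 0.630), or 1.09-fold. Its 8 probe sets all had positive values, and several of them are of a type that can bind related sequences, so signals of near-identical copies cannot be told apart here. Slc25a4 differed by 0.088 ± 0.059 and Slc25a3 by 0.040 ± 0.054, both without overlap between groups. Non-overlap therefore occurred at differences of a few percent in signal.

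**Figure D3:**
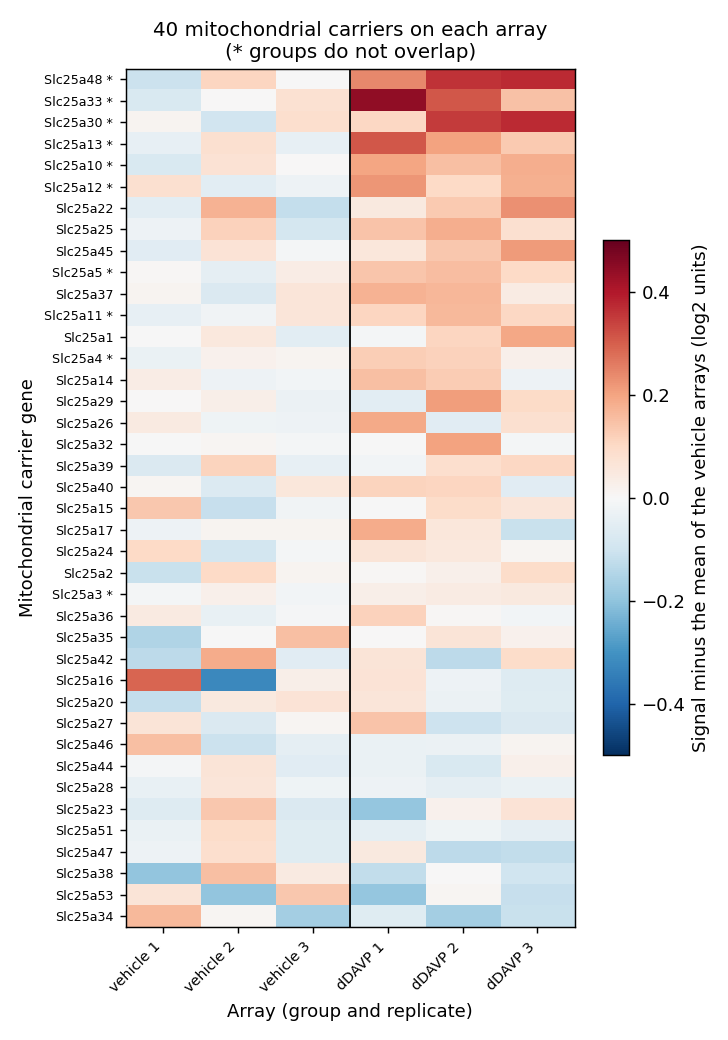
Signal of 40 mitochondrial carrier genes (rows, in order of change) on each of the 6 arrays (columns), as the difference from the mean of the vehicle arrays in log2 units (red higher, blue lower). The 10 starred genes have all dDAVP arrays above all vehicle arrays, and the bottom rows show genes with negative values such as Slc25a34.

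Because vasopressin acts through cAMP, the promoters of the members were searched for the cAMP response element TGACGTCA, which reads the same on both strands, in the 250 bases before each RefSeq transcription start (GRCm38.p6). Promoters were found for 167 of the 210 members, and the element was present in 3 of their 222 promoters (1.35%), against 508 of 32851 promoters of all genes (1.55%). The 3 are shown in full, 5′ to 3′ with the element in capitals, because they are the only member promoters in this window that hold it. They belong to Slc25a25, a calcium-regulated ATP-magnesium/phosphate carrier (chr2:32424067-32424316, minus strand, the upstream flank of 1 of 3 starts), Slc25a36, a pyrimidine nucleotide carrier (chr9:97111042-97111291, minus strand), and Slc38a6, a neutral amino acid transporter family member (chr12:73286598-73286847, plus strand).
Slc25a25: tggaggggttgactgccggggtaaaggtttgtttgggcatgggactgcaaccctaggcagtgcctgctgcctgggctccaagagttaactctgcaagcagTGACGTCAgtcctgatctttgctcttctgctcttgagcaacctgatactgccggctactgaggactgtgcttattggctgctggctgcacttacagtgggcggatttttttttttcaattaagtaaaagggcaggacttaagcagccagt
Slc25a36: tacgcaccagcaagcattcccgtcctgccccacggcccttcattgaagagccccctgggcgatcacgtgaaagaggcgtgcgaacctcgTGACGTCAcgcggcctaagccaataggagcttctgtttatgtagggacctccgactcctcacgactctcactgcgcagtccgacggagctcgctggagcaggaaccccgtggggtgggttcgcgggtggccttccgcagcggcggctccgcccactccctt
Slc38a6: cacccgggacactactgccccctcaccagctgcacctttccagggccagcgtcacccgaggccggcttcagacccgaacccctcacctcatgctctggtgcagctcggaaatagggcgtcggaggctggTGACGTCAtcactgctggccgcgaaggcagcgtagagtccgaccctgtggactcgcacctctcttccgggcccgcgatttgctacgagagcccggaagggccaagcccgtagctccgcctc
The element began 150, 161 and 121 bases before the start in these promoters. None of the 3 genes passed. Slc25a25 measured 6.94, 7.09 and 6.88 in vehicle and 7.11, 7.15 and 7.05 in dDAVP cells (0.13 ± 0.072, adjusted p = 0.722). Slc38a6 differed by 0.16 ± 0.076 (7.45, 7.51 and 7.36 against 7.72, 7.58 and 7.51) and Slc25a36 by 0.036 ± 0.063 (9.48, 9.40 and 9.43 against 9.55, 9.44 and 9.42). The groups of all 3 overlap. The shorter element TGACG, part of the longer one and searched on both strands, was in 22.1% of member promoters and 17.8% of all promoters. A match is a description of the letters and not a measured binding site.

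Carriers of amino acids and peptides numbered 27, with 23 above the dim limit and a median change of 0.032 (18 positive, 9 negative). Slc1a5, the main glutamine carrier of proliferating cells, had the smallest unadjusted p of the class. It measured 6.75, 6.72 and 6.80 in vehicle and 7.03, 6.98 and 7.05 in dDAVP cells, which left a clear gap between groups. The difference was 0.27 ± 0.058, or 1.20-fold (adjusted p = 0.227). Slc38a1, a sodium-coupled glutamine carrier, differed by 0.13 ± 0.070 without overlap (9.63, 9.62 and 9.45 against 9.64, 9.73 and 9.72). Slc16a10, an aromatic amino acid carrier, had a value of -0.12 ± 0.058 on its brightest probe set (6.87, 6.92 and 6.95 against 6.75, 6.81 and 6.82) but 0.11 ± 0.061 on its dimmest. Slc7a7 differed by 0.20 ± 0.093 with overlap, while its dimmer probe set, at a mean of 5.65, differed by 0.36 ± 0.073 without overlap (adjusted p = 0.192), the lowest adjusted p among all 360 probe sets of the members.

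Sugar carriers numbered 10. Slc2a1, the glucose transporter GLUT1, measured 10.20, 10.16 and 10.05 in vehicle and 9.960, 10.005 and 9.998 in dDAVP cells, so all dDAVP arrays were lower. The difference was -0.15 ± 0.063 (adjusted p = 0.619). All 3 Slc2a1 probe sets had negative values, at -0.16 ± 0.064 and -0.11 ± 0.078 for the other two. Slc45a3, a sugar transporter family member, differed by 0.20 ± 0.062 (7.14, 7.04 and 7.17 against 7.30, 7.30 and 7.37, adjusted p = 0.435), and its other probe set by 0.18 ± 0.067. Slc5a9, a sodium-coupled mannose and fructose carrier named after its values were seen, was under the dim limit and differed by 0.24 ± 0.070 (2.59 ± 0.067 to 2.83 ± 0.087, SD, n = 3).

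**Figure D4:**
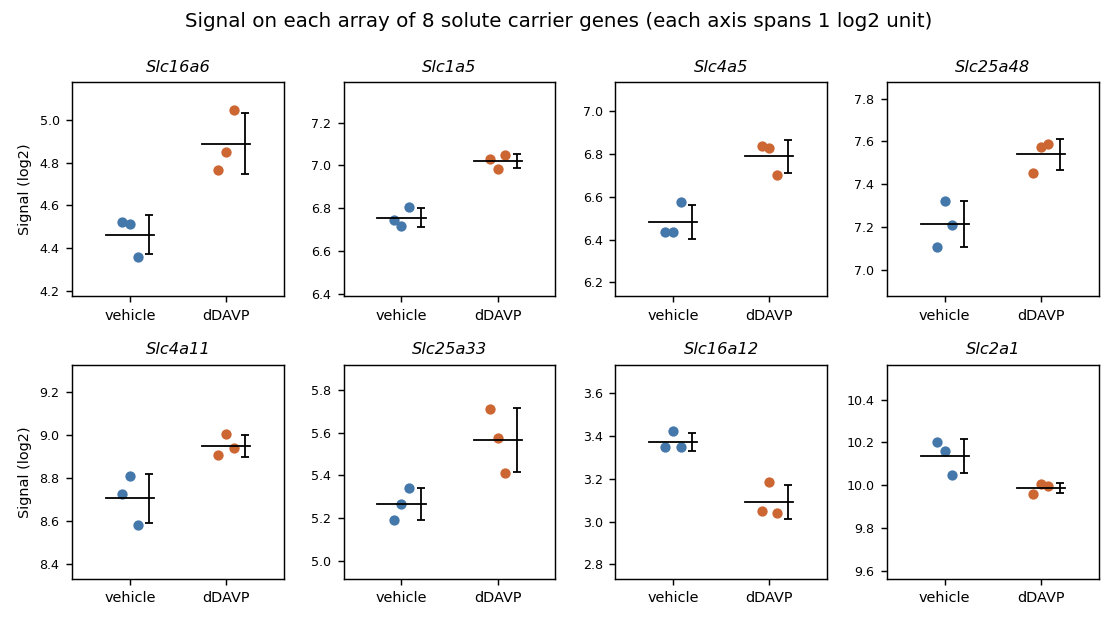
Log2 signal on each array (y axis, 1 log2 unit high in every panel) of 8 solute carrier genes in vehicle (blue) and dDAVP (orange) cells, with the group mean (line) and SD (bar, n = 3). The 8 genes were picked with their values known and all have groups that do not overlap, which 15.2% of all genes have. The dDAVP arrays are higher for 6 of these genes and lower for Slc16a12 and Slc2a1. None of them passed the adjusted test.

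Carriers of zinc, iron, copper and manganese numbered 22 and were nearly all measured clearly, with 20 above the dim limit. Their median change was 0.00019, with 11 positive and 11 negative values. Slc39a14, an importer of zinc, iron and manganese, differed by 0.17 ± 0.068 (8.44, 8.58 and 8.45 in vehicle against 8.67, 8.71 and 8.59 in dDAVP cells, adjusted p = 0.592). Slc30a4, a zinc exporter of vesicles, differed by 0.067 ± 0.056 without overlap. The brightest of the class, the zinc carrier Slc39a7 of the endoplasmic reticulum, differed by -0.042 ± 0.057. The iron exporter Slc40a1, chosen after its values were seen, differed by 0.12 ± 0.078 with overlap. All 22 members had intervals within 1.5-fold.

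The 25 carriers of nucleotide sugars, sugar phosphates and acetyl-CoA, which supply the glycosylating enzymes of the Golgi and endoplasmic reticulum, were all above the dim limit and had a median change of 0.021. Slc35a3, which carries UDP-N-acetylglucosamine, differed by 0.093 ± 0.058 (10.02, 9.96 and 9.94 against 10.03, 10.10 and 10.07). Slc35a1, the CMP-sialic acid carrier, differed by 0.12 ± 0.075 (7.99, 7.78 and 7.98 against 8.10, 8.02 and 8.01). In both the groups did not overlap, and neither passed. Slc35b2, the carrier of the sulfate donor of the Golgi, was at -0.031 ± 0.073 on its brightest probe set and 0.31 ± 0.064 on a dimmer one (adjusted p = 0.201), so its probe sets differ in sign. It was named after its values were seen.

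Carriers of vitamins, choline, fatty acids and heme numbered 16, with a median of 0.045. Slc48a1, which moves heme out of lysosomes, measured 9.30, 9.30 and 9.24 in vehicle and 9.41, 9.41 and 9.42 in dDAVP cells, a difference of 0.14 ± 0.055 (adjusted p = 0.591). Slc44a4, a choline transporter-like protein, differed by 0.15 ± 0.063 (7.79, 7.78 and 7.79 against 7.87, 7.91 and 8.02). Slc44a2 was at 0.14 ± 0.081 with overlap. The 19 carriers of organic ions, bile acids and monoamines had a median of 0.037, and 16 were above the dim limit. The carnitine carrier Slc22a5 differed by 0.086 ± 0.059 on its brightest probe set and by 0.40 ± 0.12 on a dimmer one (adjusted p = 0.411), both without overlap. Slc10a3, an orphan of the bile acid family, differed by 0.089 ± 0.059 without overlap, and Slc22a23, an orphan of the organic ion family, by 0.0088 ± 0.067 with overlap.

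The smaller classes held no gene at an unadjusted p below 0.05 with 1 exception. The 5 calcium and magnesium carriers ranged from -0.12 to 0.18, with the magnesium transporter Slc41a1 at -0.029 ± 0.068. The 5 nucleoside and nucleobase carriers ranged from -0.056 for the lysosomal nucleoside carrier Slc29a3 to 0.12. Of the 5 genes not assigned to a class, the creatine transporter Slc6a8 was at -0.12 ± 0.083 and Slc66a2, a PQ-loop family member, at 0.099 ± 0.058 without overlap. The exception was Slc16a9, linked to carnitine export and named after its values were seen, at -0.23 ± 0.066 and under the dim limit (3.47, 3.52 and 3.57 in vehicle against 3.20, 3.32 and 3.35 in dDAVP cells, adjusted p = 0.395).

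**Figure D5:**
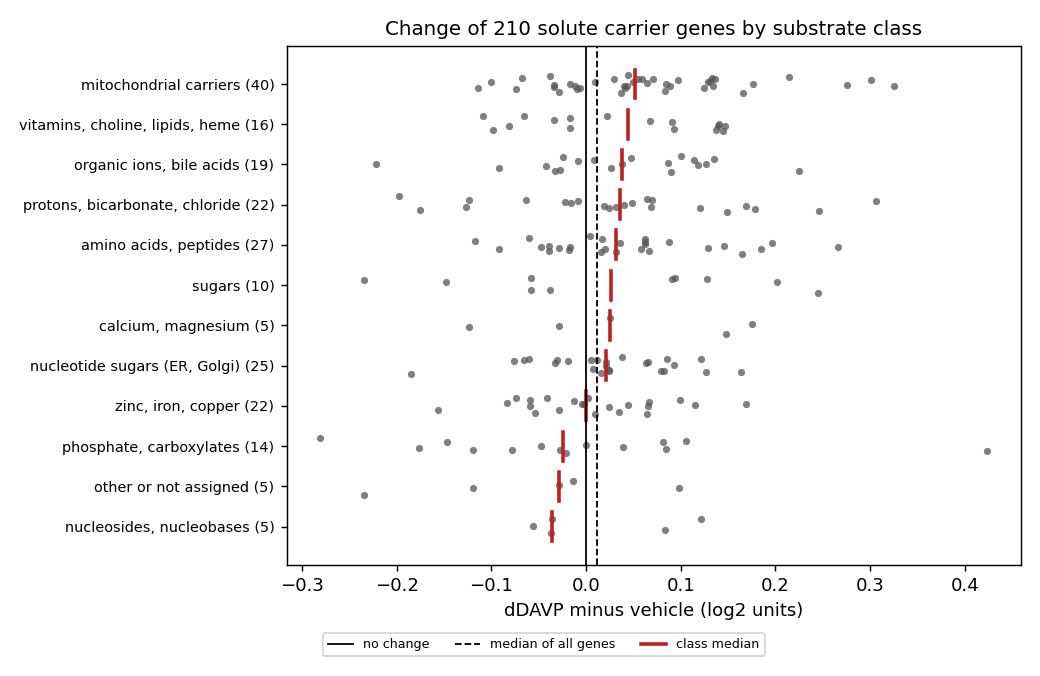
Log2 change (dDAVP minus vehicle, x axis) of the 210 solute carrier genes, 1 point a gene, by substrate class (y axis, number of genes in brackets), with class medians as red bars, no change as a solid line and the median of all genes, 0.012, as a dashed line. Class medians lie between -0.037 for nucleosides and 0.052 for mitochondrial carriers, well inside the spread of single genes.

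Several members had more than 1 probe set, which allows a second look at the same gene. Whether the probe sets of a gene read the same transcript was not tested. Of the 93 such members, 54 had changes of the same sign on all their probe sets and 39 did not, and the range of change over a member's probe sets had a median of 0.093 log2 units and reached 0.34. None of the 150 probe sets that did not represent their gene passed (0), and 18 had an unadjusted p below 0.05, where 7.98% of all probe sets did. Among the 20 members at an unadjusted p below 0.05, 9 had several probe sets, 7 of these had 1 sign throughout, and 6 had another probe set at an unadjusted p below 0.05.

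Genes that work with these carriers were listed separately. None of the 29 measured of 44 partners and regulators passed in limma (0 higher, 0 lower), and 5 had an unadjusted p below 0.05, which 7.80% of all genes had. Txnip, an arrestin-like protein that promotes removal of GLUT1 from the cell surface, measured 11.74 ± 0.065 in vehicle and 11.32 ± 0.14 in dDAVP cells (SD, n = 3), with a difference of -0.42 ± 0.082 (adjusted p = 0.154). The metallothioneins Mt1 and Mt2, which bind zinc and copper, differed by 0.17 ± 0.066 and 0.23 ± 0.072. The kinases Wnk4 and Oxsr1, which set the activity of family 12 cotransporters, differed by 0.21 ± 0.083 and -0.15 ± 0.057. These are all 5 of that kind. Bsg, the chaperone of the monocarboxylate carriers, was at 12.55 ± 0.022 and 12.51 ± 0.033. Of the 5 measured Slco genes, which carry organic anions, none passed (0) and 2 had an unadjusted p below 0.05, beside the same 7.80%. The prostaglandin carrier gene Slco2a1 differed by 0.37 ± 0.069 (adjusted p = 0.143) and Slco3a1 by -0.22 ± 0.063 (adjusted p = 0.404).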

How the data were processed

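RNA from 3 vehicle and 3 dDAVP samples was measured on 6 Affymetrix Mouse Genome 430 2.0 arrays. The authors deposited 1 log2 signal per probe set and sample, with 28287 probe sets of which 62 are controls. Affymetrix Expression Console 1.1, MAS5 and RMA are listed, without role or order, per the submitters' processing notes. Which of them made these values, the sources used here do not say. Array medians lay within 0.043 and correlations between arrays were 0.996 to 0.998. The deposited values were used unchanged. Control probe sets were left out, genes were named through the platform annotation, and 2 probe sets that name a Slc gene together with others were not used. The groups were compared with limma 3.58.1 (R 4.3.3; lmFit and eBayes) over 28225 probe sets, with Benjamini-Hochberg adjustment over all of them and two-sided p-values. The fit was tested on simulated data, where a high recovery was required only of changes far larger than those of the members. How often changes of the members' size would pass is not given. With 3 arrays against 3, an exact permutation test of a single gene cannot go below p = 0.1, and the number of arrays limits the precision.

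The members, classes and gene lists were chosen with earlier results of these data known. Genes named in the text are, in each of 12 classes, the brightest member and up to 3 members above the olfactory receptor limit with non-overlapping groups and the smallest p, together with carriers of other nephron segments and a few transporters of the collecting duct. Other members were named after their values were seen, among them Slc7a1 and Slc10a2 in the order of signals. Correlations of the deviations of same-numbered samples were weak, at 0.20, 0.046 and -0.052, so the numbers were not taken as pairs. Those of differently numbered samples ran from -0.21 to 0.17, so the first pair lay slightly above that range. Alternatives were other scalings between arrays, filters on dim probe sets, other settings of the variance prior, averaging all probe sets of a gene, other thresholds, a replicate block and leaving out each array.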

Additional observations from a re-analysis of the deposited data

How the results depend on the processing

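The count of probe sets past the test was 61 as reported, 282 with arrays scaled to the hybridisation controls, 95 among probe sets above the median, 146 with a trended prior, 23 at a threshold of 0.01 and 2251 at an unadjusted p below 0.05. Without any 1 array it ran from 22 to 46. With a replicate block it was 24, and no member passed (0, lowest adjusted p 0.320). Some other settings brought a member closer to the threshold without passing it. The lowest member value was 0.0601 among probe sets above the median (125 members kept). It was 0.0762 when each gene's signals were averaged and 0.117 with a trended prior. Apart from the hybridisation control scaling, the remaining settings had lowest values from 0.172 to 0.446. Solute carriers past the test were 0 in either direction in each setting tried except the hybridisation control scaling (2 higher, Slc16a6 and Slc4a5) and the unadjusted threshold (16 higher, 4 lower). That scaling shifts every gene by the same amount, 0.15. Signs turned for some named genes. Under the hybridisation controls these were Slc4a2 (0.14), Slc39a7 (0.11), Slc6a8 (0.028), Slc29a3 (0.092), Slc41a1 (0.12), Slc16a10 (0.030), Slc6a19 (0.12), Slc13a3 (0.00042), Slc17a3 (0.028), Slc34a3 (0.0997), Slc12a1 (0.084), Slc26a7 (0.024), Slc25a34 (0.033) and Slc35b2 (0.12). Under the poly-A controls they were Slc38a2 (-0.0076), Slc22a23 (-0.015), Slc4a4 (-0.0050) and Slc3a1 (-0.020). Quantile normalization turned Slc22a23 (-0.0017), and median centring Slc22a23 (-0.0034) and Slc3a1 (-0.0079). The mean over probe sets turned Slc38a2 (-0.0089), Slc4a4 (-0.038), Slc41a3 (-0.032), Slc35b2 (0.14) and Slc25a12 (-0.041, from 0.17). Leaving out 1 array gave both signs for Slc22a12 (-0.023 to 0.067), Slc22a23 (-0.029 to 0.046), Slc22a8 (-0.0083 to 0.25), Slc34a3 (-0.10 to 0.015), Slc38a2 (-0.026 to 0.077), Slc3a1 (-0.11 to 0.18), Slc41a1 (-0.066 to 0.021), Slc4a2 (-0.040 to 0.018), Slc4a4 (-0.035 to 0.062), Slc6a19 (-0.15 to 0.11), Slc9a3 (-0.016 to 0.065), Slc10a2 (-0.022 to 0.15), Slc18a2 (-0.19 to 0.36), Slc25a36 (-0.0033 to 0.061) and Slc35b2 (-0.081 to 0.015). The counts of non-overlapping groups under other scalings and without single arrays, and all alternatives for genes named outside the rule, were chosen after seeing the data. Between 196 and 208 of 210 members had intervals within 1.5-fold over the settings that kept all members. The cause of these differences was not tested. Signal close to background limits what can be said of the 22 dim members.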
